A study of Mus musculus with 8 samples.

Results

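The 10 genes Clec4a1, Clec4a2, Clec4a3, Clec4d, Clec4e, Clec4n, Clec7a, Clec10a, Mgl2 and Clec12a encode C-type lectin receptors of myeloid cells. They were taken by gene symbol from the count files, where all 10 were present among 24421 gene symbols. They were followed in RNA sequencing of bone marrow-derived macrophages (BMDM), primary mouse macrophages grown from marrow, that had all received interleukin 4 (IL-4) for 24 h. CKO denotes macrophages of OPA1f/f; Lyz2-Cre mice (4 libraries, replicates 2, 6, 7 and 8), in which Cre recombinase, produced from the Lyz2 locus of myeloid cells, acts on the loxP-flanked Opa1 gene. FLOX denotes macrophages of OPA1f/f mice (4 libraries, replicates 3, 4, 6 and 7), which carry the same Opa1 alleles and no Cre. The comparison asks how the loss of OPA1, a GTPase of the inner mitochondrial membrane, alters transcription in macrophages under IL-4. Strain background, age and sex of the mice are not part of the labels, nor is it stated whether each library came from its own mouse, so p-values measure the spread between these libraries, which may be technical.

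C-type lectin receptors are surface proteins with a carbohydrate-recognition fold, through which macrophages sense fungal, mycobacterial and host glycans and glycolipids. One class activates the cell through the kinase SYK and the adaptor CARD9, either from a tyrosine motif in its own tail (Dectin-1, from Clec7a) or by pairing with the FcR gamma chain made by Fcer1g (Mincle from Clec4e, MCL from Clec4d, Dectin-2 from Clec4n). Others carry an inhibitory tyrosine motif (ITIM) that recruits phosphatases such as SHP-1 (DCIR from Clec4a2, MICL from Clec12a), and the galactose-type lectins MGL1 (Clec10a) and MGL2 (Mgl2) take up glycoproteins. Clec7a, Clec10a and Mgl2 are known as IL-4-induced genes of mouse macrophages.

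Between 11764855 and 18939948 read pairs could be assigned to a gene in each library. Opa1 counted as a whole gene stood at 100.1 ± 4.42 CPM (read pairs scaled to a common library size) in CKO cells and 114 ± 11.6 CPM in FLOX cells (SD, n = 4 each; edgeR adjusted p = 0.0544). Lyz2, the gene that holds the driver, stood at 2030 ± 251 CPM in CKO cells and 7439 ± 597 CPM in FLOX cells (SD, n = 4 each), without overlap. A count over the whole of Opa1 does not separate the deleted part from the rest. Opa1 loss and the presence of the Cre driver cannot be told apart in this design. Macrophage markers were abundant in every library (summed level of 9 markers 7026 to 8244 CPM in CKO and 13385 to 14858 CPM in FLOX, most of the gap being Lyz2). Of these 9, Csf1r (log2 fold change -0.42), Cd68 (-0.48) and Mertk (-0.78) fell as Lyz2 did, Fcgr1 rose, and the other 4 did not pass the test; the part of this in the receptor differences was not tested. Of 9 islet markers, checked because the protocol text names islets, 8 were at 0 in all libraries. Of the CKO libraries, replicate 2 came closest to FLOX in 63.6% of the genes called lower and in 58.9% of those called higher.

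The receptor genes were divided in their response to genotype. In CKO, Clec4e, Mgl2, Clec4a2 and Clec4d were higher, Clec7a, Clec4a3 and Clec4a1 were lower, and Clec10a, Clec12a and Clec4n did not pass the test. That makes 4 of 10 higher and 3 of 10 lower (edgeR quasi-likelihood F test, adjusted p at 0.05), where 23.8% of the 11519 tested genes were higher and 21.6% lower (45.4% in either direction). The median log2 fold change of the 10 genes was 0.0020 and that of all tested genes -0.019, whereas the median size of the change without its sign was 0.40 for the 10 and 0.23 for all. No gene of the 10 changed by more than 2-fold, a size that 5.84% of the tested genes passed together with the test. The libraries of the genotypes did not overlap for 6 of the 10 genes, against 42.7% of tested genes. All 10 passed the filter on low counts, with 19 to 13863 read pairs per gene and library.

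**Figure D1:**
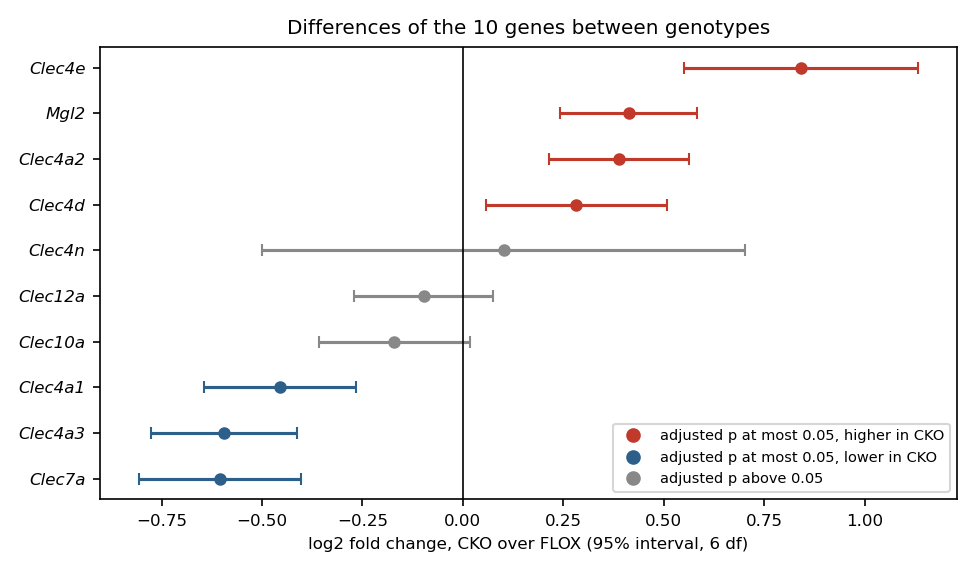
Log2 fold change of each gene, CKO over FLOX (x axis), with 95% intervals on the 6 residual degrees of freedom of edgeR's quasi-likelihood fit. The F test adds prior degrees of freedom, so these intervals are wider than the test implies. Colours mark genes past an adjusted p of 0.05. Clec4e at the top has a log2 fold change of 0.84 and Clec7a at the bottom -0.60, and the intervals of Clec4n, Clec12a and Clec10a include 0.

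Clec7a, which encodes the beta-glucan receptor Dectin-1, had the highest read count of the 10 in FLOX. Its level was 618, 537, 597 and 571 CPM in CKO replicates 2, 6, 7 and 8, against 916, 977, 749 and 891 CPM in FLOX replicates 3, 4, 6 and 7. All CKO libraries lay below all FLOX libraries, and FLOX replicate 6 came nearest to CKO. The mean was 581 ± 35.2 CPM in CKO cells and 883 ± 96.8 CPM in FLOX cells (SD, n = 4 each), which is 65.8% of the FLOX mean (log2 fold change -0.60, SE 0.082, 95% interval -0.81 to -0.40, edgeR adjusted p = 8.32e-05). The gene lies on chromosome 6, 129461591 to 129472779 on the minus strand (ENSMUSG00000079293, GRCm38, the assembly of mm10), and GENCODE M21 lists it as a polymorphic pseudogene, a class for genes that are intact in some strains.

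Clec4a3 and Clec4a1 encode DCIR3 and DCIR4, relatives of DCIR in the mouse. Clec4a3 stood at 163, 133, 139 and 139 CPM in CKO replicates 2, 6, 7 and 8, against 236, 216, 210.2 and 204 CPM in FLOX replicates 3, 4, 6 and 7. That put CKO at 66.3% of FLOX without overlap (log2 fold change -0.59, SE 0.074, edgeR adjusted p = 4.32e-05). For Clec4a1 the values were 97.2, 75.5, 77.9 and 80.2 CPM in the CKO libraries, against 115, 113, 115 and 109 CPM in the FLOX libraries in the same order. CKO replicate 2 was the highest CKO library for both genes, and the FLOX values of Clec4a1 were close together (113 ± 2.72 CPM, SD, n = 4). Clec4a1 was at 73.0% of the FLOX mean (log2 fold change -0.45, SE 0.077, edgeR adjusted p = 0.000443).

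Clec4a2, whose product DCIR carries an ITIM, was higher in CKO. It was at 72.6, 76.6, 81.7 and 78.0 CPM in CKO replicates 2, 6, 7 and 8, against 63.5, 56.4, 63.0 and 53.0 CPM in FLOX replicates 3, 4, 6 and 7. Every CKO library exceeded every FLOX library, and CKO reached 131% of the FLOX mean (log2 fold change 0.39, SE 0.071, edgeR adjusted p = 0.000766). Read for read, the count of Clec4a2 relative to Clec4a3 was 0.542 ± 0.0658 in CKO and 0.272 ± 0.0185 in FLOX (SD, n = 4 each), without overlap between the genotypes. The coding sequences of Clec4a2 and Clec4a3 were identical at 77.2% of 702 aligned bases, and their longest identical stretch was 34 bases. Of all 50-base windows in Clec4a2 transcripts 6.83% occurred unchanged, on either strand, in a transcript of another gene (most often Clec4a4, Clec4b1 or Sri). None of Clec4a1 or Clec4a3 did. Clec4a4 itself was at 0.366 CPM in CKO cells and 0.567 CPM in FLOX cells on average. Clec12a, named above as the other gene with an ITIM, stood at 211 ± 16.2 CPM in CKO cells and 226 ± 15.9 CPM in FLOX cells (SD, n = 4 each). Clec12a had a log2 fold change of -0.097 (95% interval -0.27 to 0.076, edgeR adjusted p = 0.285). The genotypes overlapped for it, and the interval leaves room for a fall to 82.9% of FLOX or a rise to 105%.

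Among the receptors that pair with the FcR gamma chain, Clec4e had the largest change of the 10. Clec4e encodes Mincle, which binds the mycobacterial cord factor and a nuclear protein released by dying cells. It stood at 18.5, 17.3, 19.4 and 23.5 CPM in CKO replicates 2, 6, 7 and 8, against 9.89, 10.9, 13.01 and 9.94 CPM in FLOX replicates 3, 4, 6 and 7. The genotypes did not overlap and CKO reached 179% of the FLOX mean (log2 fold change 0.84, SE 0.12, 95% interval 0.55 to 1.13, edgeR adjusted p = 0.000111). Clec4d encodes MCL, which forms a complex with Mincle and helps it to the cell surface. Its values were 115, 114, 103 and 125 CPM in the CKO libraries, against 105, 87.8, 102 and 79.6 CPM in the FLOX libraries. FLOX replicate 3 lay above CKO replicate 7, so the genotypes overlapped, and the rise to 122% of FLOX was the smallest that passed the test (log2 fold change 0.28, SE 0.092, edgeR adjusted p = 0.0240). That call was lost when CKO replicate 8 was left out (adjusted p = 0.0568), as when FLOX replicate 4 (0.0607) or 7 (0.0560) was. Clec4e reads per Clec4d read came to 0.173 ± 0.0190 in CKO and 0.118 ± 0.0159 in FLOX (SD, n = 4 each). Against Clec7a, an activating receptor with a tyrosine motif of its own, they came to 0.0340 ± 0.00495 per Clec7a read in CKO and 0.0126 ± 0.00318 in FLOX (SD, n = 4 each), with no overlap for either ratio.

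Clec4n, the gene of the fungal mannan receptor Dectin-2, was close to the detection limit. Its 25, 19, 24 and 39 read pairs in CKO replicates 2, 6, 7 and 8 compare with 23, 29, 28 and 23 in FLOX replicates 3, 4, 6 and 7. On the CPM scale this is 1.86 ± 0.622 in CKO and 1.74 ± 0.309 in FLOX (SD, n = 4 each), with full overlap. The log2 fold change of 0.10 (SE 0.25, edgeR adjusted p = 0.762) has a 95% interval from -0.50 to 0.70, and no difference was detectable at this depth. Its sign turned to -0.10 without CKO replicate 8.

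The galactose-type lectin genes Mgl2 and Clec10a lie next to each other on chromosome 11 and differed in response. Mgl2 (70130329 to 70137550, GRCm38) stood at 677, 718, 735 and 717 CPM in CKO replicates 2, 6, 7 and 8, against 572, 501, 579 and 487 CPM in FLOX replicates 3, 4, 6 and 7. All CKO libraries were above all FLOX libraries (133% of the FLOX mean, log2 fold change 0.41, SE 0.070, edgeR adjusted p = 0.000434). Clec10a (70156197 to 70170834) was at 201, 175, 177 and 167 CPM in the CKO libraries, against 221, 184, 214 and 190.1 CPM in the FLOX libraries. CKO replicate 2 fell within the FLOX range, the other CKO libraries below it. The log2 fold change of -0.17 (SE 0.077, 95% interval -0.36 to 0.018, edgeR adjusted p = 0.0897) did not pass, but did without CKO replicate 2 (adjusted p = 0.0395) or without FLOX replicate 4 (0.0463). Per Clec10a read there were 3.37, 4.11, 4.16 and 4.29 Mgl2 reads in the CKO libraries, against 2.59, 2.72, 2.70 and 2.56 in the FLOX libraries.

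Both coding sequences of this pair were identical at 91.1% of 922 aligned bases, the highest of any pair among the 10. Their longest identical stretch of 183 bases starts at base 502 of the Clec10a coding sequence and base 550 of that of Mgl2. It is shown because a read pair that falls wholly inside it cannot be placed (from the GENCODE M21 transcripts, GRCm38, plus strand).
Clec10a and Mgl2: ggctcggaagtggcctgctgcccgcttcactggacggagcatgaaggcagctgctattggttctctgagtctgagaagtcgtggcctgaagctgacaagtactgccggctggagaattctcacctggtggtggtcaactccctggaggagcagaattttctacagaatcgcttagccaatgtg
Of the 50-base windows of Clec10a transcripts 9.02% also occurred in another gene, and 13.1% of those of Mgl2, with each the other's main partner. At 100 bases the shares were 2.64% and 3.95%. The read length is not given in the sources used here, and pairs with more than 1 alignment were left out of the counts, so the level of either gene may be understated.

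**Figure D2:**
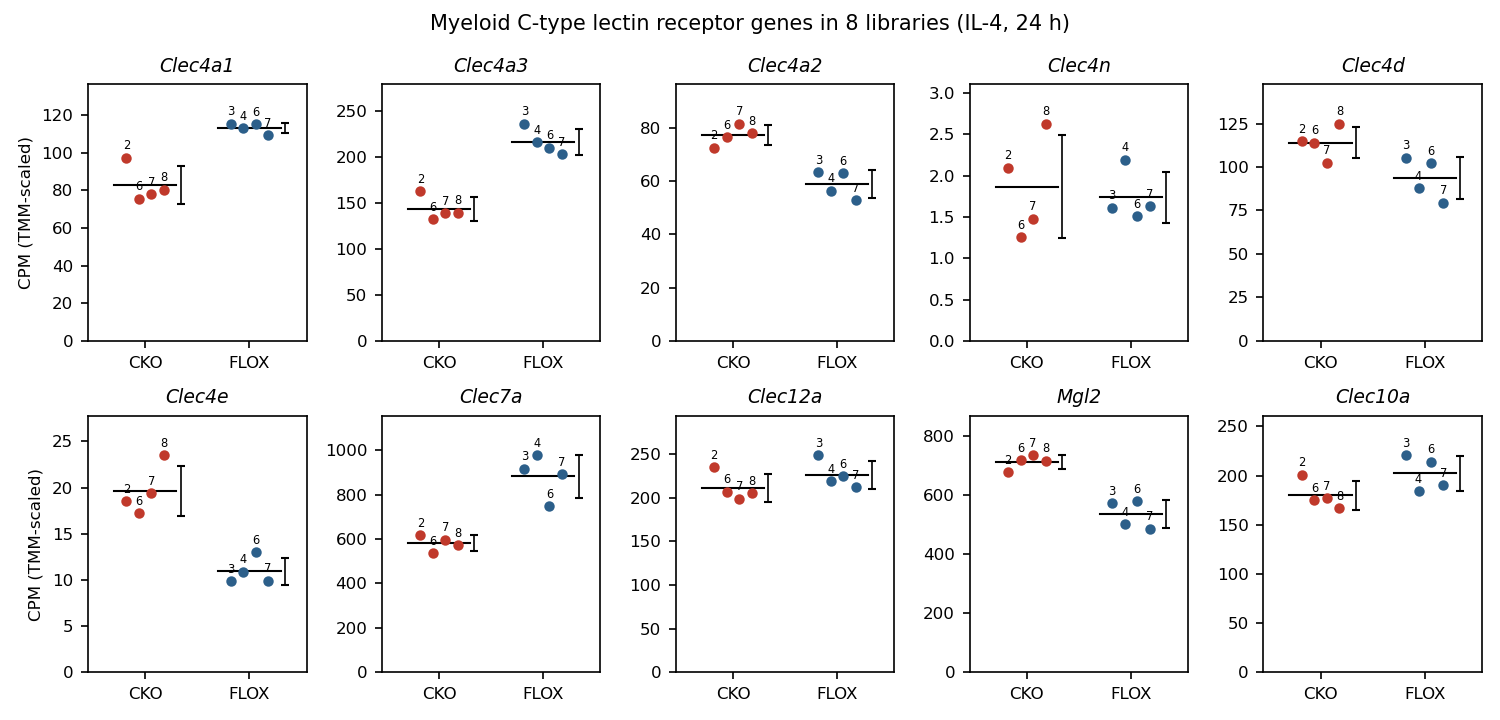
Level of each gene in CPM (y axes, from 0, one scale per panel) in the 4 CKO and 4 FLOX libraries; points are libraries with their replicate number, lines are means and bars the SD. CKO and FLOX points do not overlap for Clec4a1, Clec4a3, Clec4a2, Clec4e, Clec7a and Mgl2.

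Levels of different genes were compared per kilobase of annotated exon (CPM per kb), since longer transcripts give more reads. On this scale Mgl2 ranked first in CKO with 339.9 ± 11.7 and Clec7a next with 220.1 ± 13.3 CPM per kb (SD, n = 4), without overlap. In FLOX the order of the top genes was the other way round, with Clec7a at 335 ± 36.7 and Mgl2 at 255 ± 22.7 CPM per kb (SD, n = 4), again without overlap. Clec4a3 came next in both genotypes with 108 CPM per kb in CKO and 163 in FLOX. Behind it, Clec4d, Clec10a and Clec4a1 followed in CKO, and Clec4a1, Clec10a and Clec4d in FLOX, and neighbours within these stretches of the order overlapped. Clec12a, Clec4a2, Clec4e and Clec4n came last in this order in both genotypes, with no overlap between neighbours. The exon length joins all isoforms in GENCODE M21, and it is long for Clec12a (5528 bases) and Clec4e (4965 bases), which lowers their place.

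Summed over the 10 genes, the level was 2123 ± 60.7 CPM in CKO cells and 2341 ± 113 CPM in FLOX cells (SD, n = 4 each). Clec7a and Mgl2 together held 58.9% to 62.6% of this sum in CKO and 58.5% to 62.4% in FLOX. Within that share the genes traded places, as Mgl2 alone held 30.8% to 35.0% in CKO and 21.2% to 25.5% in FLOX, and Clec7a 26.1% to 28.1% in CKO and 33.0% to 41.3% in FLOX. Per Clec7a read there were 1.23 ± 0.101 Mgl2 reads in CKO and 0.614 ± 0.116 in FLOX (SD, n = 4 each).

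**Figure D3:**
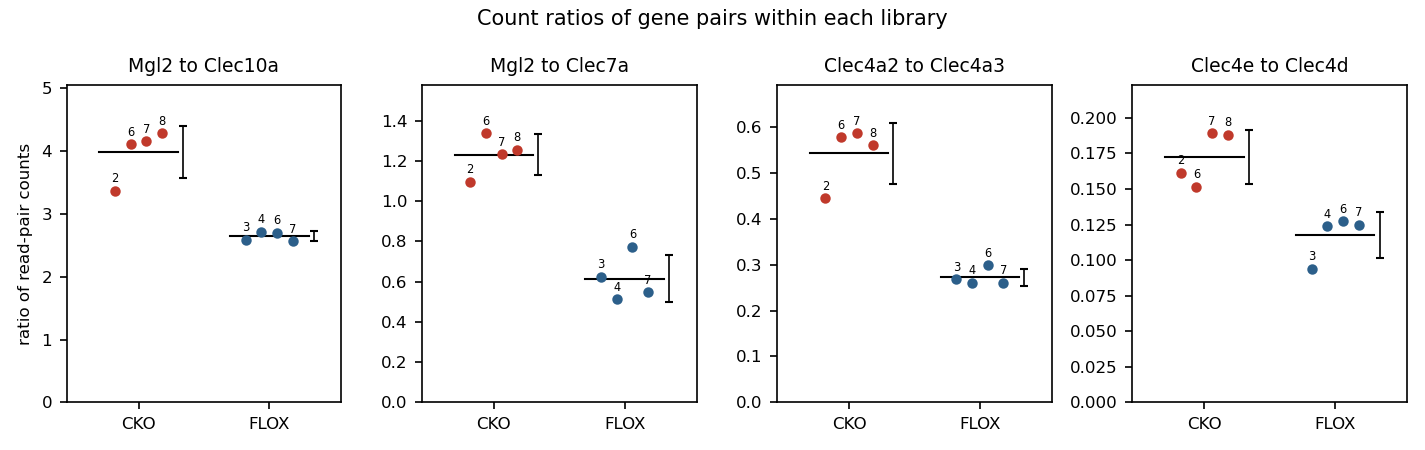
Ratio of the read-pair counts of a pair of genes within each library (y axes, from 0), for CKO and FLOX; points are libraries with their replicate number, lines are means and bars the SD. In each of the 4 panels all CKO libraries lie above all FLOX libraries, and CKO replicate 2 is the lowest CKO library except in the ratio of Clec4e to Clec4d.

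The genes form 3 chromosomal clusters. Clec4a1, Clec4a3, Clec4a2, Clec4n, Clec4d and Clec4e lie in this order in 368 kb of chromosome 6 (122921848 to 123289870), interleaved with Clec4a4, Clec4b1 and Clec4b2. Along it, both Clec4a1 and Clec4a3 at the start were lower, and 3 of the 4 members from Clec4a2 onward were higher. Of all tested genes, 21.6% were lower and 23.8% higher. Clec4d, 1 of these 3, was not called in 4 of 17 alternatives, and Clec4a4 and Clec4b2 were too low to test. Whether position bears on the direction was not tested. Clec4b1, which lies between Clec4a3 and Clec4a2, was also higher (11.7 ± 1.57 CPM in CKO cells and 9.01 ± 1.57 CPM in FLOX cells, SD, n = 4 each; log2 fold change 0.38, edgeR adjusted p = 0.0358). Its call was lost when CKO replicate 6 (adjusted p = 0.0874) or 7 (0.0900), or FLOX replicate 4 (0.0836) or 7 (0.0885), was left out. Clec12a and Clec7a bound a second cluster of 130.1 kb on the same chromosome, in which Clec12b, Clec1b, Clec9a and Clec1a were too low to test. Of the 13 other genes inside or next to the clusters 9 were not tested, each at 0.663 CPM or less on average in either genotype, and Clec4b1 was the 1 called among the 4 tested. Necap1, which borders Clec4a1, stood at 73.9 ± 1.59 CPM in CKO cells and 71.2 ± 1.87 CPM in FLOX cells (SD, n = 4 each; edgeR adjusted p = 0.432), Olr1, which borders Clec7a, at 1.49 CPM in CKO cells and 2.04 CPM in FLOX cells (edgeR adjusted p = 0.106), and Asgr2, which borders Mgl2, at 1.64 CPM in CKO cells and 1.27 CPM in FLOX cells (edgeR adjusted p = 0.162).

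**Figure D4:**
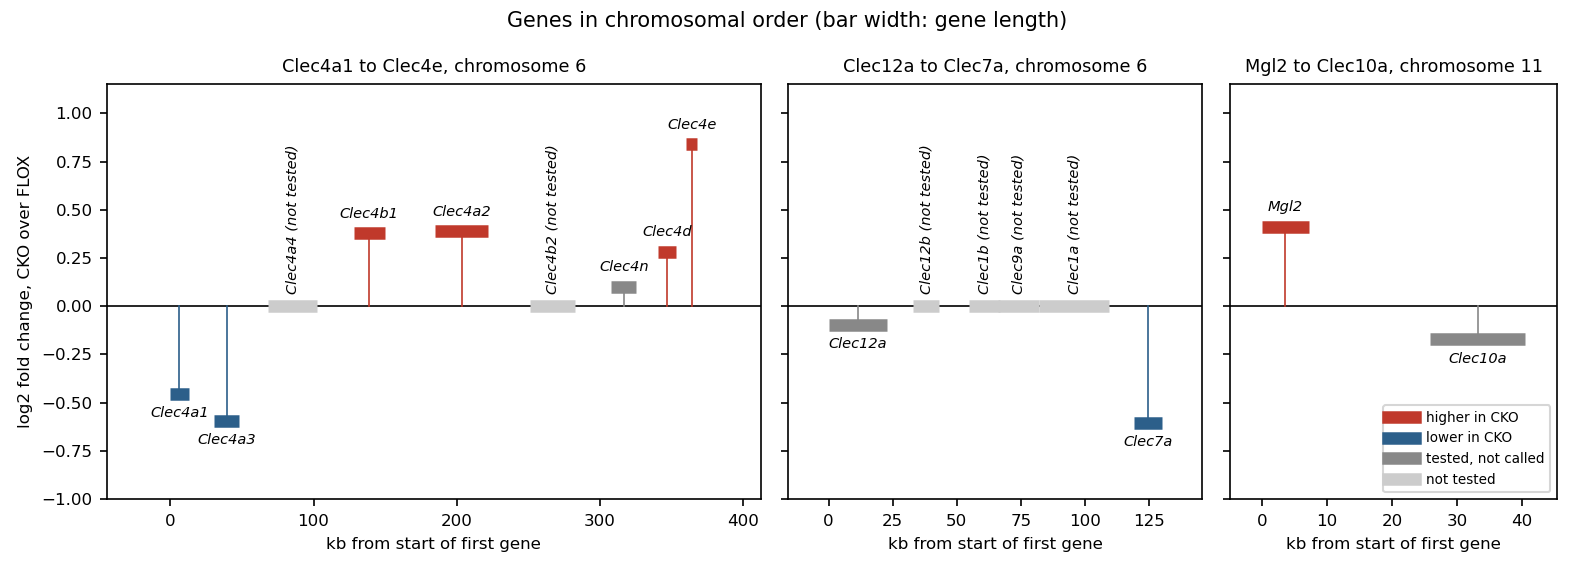
Log2 fold change, CKO over FLOX (y axis), of the genes of each cluster against distance in kb from the start of its first gene (x axis); bar width is the length of the gene, and genes too low to test are drawn at 0. Clec4a1 and Clec4a3 lie below 0 and Clec4b1, Clec4a2, Clec4d and Clec4e above it.

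The 250 bases upstream of the RefSeq transcription start were available for 8 of the 10 genes (table build GRCm38.p6). Clec4a3 and Clec7a have 2 listed start sites, and matches were counted at the first. The windows of Clec4a2, Clec4a3 at its other site, Mgl2 and Clec12a hold annotated exon sequence of the gene itself, and those of Clec4a2 and Clec12a lie inside the gene as GENCODE M21 draws it, so they are not plainly upstream sequence. They were searched on both strands for the STAT motif (TTCNNNGAA, or the same with 1 more N, the spacing that STAT6 prefers), the C/EBP motif TTGCNNAA, the PU.1-type ETS motif GAGGAA, the AP-1 motif TGANTCA and the interferon motif (ISRE, searched as GAAANN with a second GAAA directly after it). GAGGAA can share its last letters with the STAT motif, but no matches overlapped in the promoters shown. The promoters shown here belong to lower genes (Clec7a, Clec4a1, Clec4a3) and to the gene with the largest rise (Clec4e), and capitals mark STAT and C/EBP matches.
Clec7a (chr6:129472780-129473029, minus strand): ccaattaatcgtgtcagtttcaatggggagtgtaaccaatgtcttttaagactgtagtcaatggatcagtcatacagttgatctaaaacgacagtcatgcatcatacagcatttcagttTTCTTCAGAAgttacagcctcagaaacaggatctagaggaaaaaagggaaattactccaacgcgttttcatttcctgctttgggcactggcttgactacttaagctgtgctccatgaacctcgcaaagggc
Clec4a1 (chr6:122921598-122921847, plus strand): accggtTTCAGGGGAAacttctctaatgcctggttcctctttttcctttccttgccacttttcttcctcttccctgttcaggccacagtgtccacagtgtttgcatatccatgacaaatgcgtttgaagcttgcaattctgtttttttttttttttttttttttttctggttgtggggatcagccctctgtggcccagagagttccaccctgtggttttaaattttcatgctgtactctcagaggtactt
Clec4a3 (chr6:122952265-122952514, plus strand): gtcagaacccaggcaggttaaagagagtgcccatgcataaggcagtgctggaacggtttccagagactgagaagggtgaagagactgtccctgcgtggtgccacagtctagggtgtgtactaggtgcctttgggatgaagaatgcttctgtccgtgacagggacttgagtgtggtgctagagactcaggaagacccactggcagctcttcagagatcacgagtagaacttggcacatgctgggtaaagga
Clec4e (chr6:123289872-123290121, minus strand): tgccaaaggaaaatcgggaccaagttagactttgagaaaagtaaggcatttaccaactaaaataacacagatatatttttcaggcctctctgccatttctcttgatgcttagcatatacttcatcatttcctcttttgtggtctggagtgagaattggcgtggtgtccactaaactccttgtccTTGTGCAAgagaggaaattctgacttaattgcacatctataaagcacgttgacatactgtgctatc
The STAT motif stood in 3 of the 8 windows, those of Clec4a1, Clec4a2 and Clec7a, and in 12.6% of the 27025 promoters of the table. Clec7a and Clec4a1 were lower in CKO, and Clec4a2, whose window lies inside the gene, was higher. Whether the motif bears on the direction of change was not tested. The C/EBP motif stood in the windows of Clec4e and Clec12a and in 9.55% of all promoters, and GAGGAA in 6 of 8 and 23.1% of all. Clec4a3 had GAGGAA at its other start site, 50 bases upstream. AP-1 letters occurred once (Clec12a, 6.87% of all) and the interferon motif in none of the 8 (3.04% of all). A match is a string of letters and no evidence of binding.

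Transcription factors known to act on such genes were mostly lower in CKO. Of 14 tested, 8 fell (57.1%, against 21.6% of all tested genes) and 2 rose (14.3%, against 23.8%). Their median log2 fold change was -0.33. Stat6, which carries the IL-4 signal, was at 229.8 ± 9.39 CPM in CKO cells and 259 ± 4.96 CPM in FLOX cells (SD, n = 4 each; log2 fold change -0.17, edgeR adjusted p = 0.0202), a call that ended without CKO replicate 6 (adjusted p = 0.100), 7 (0.0863) or 8 (0.0928). Cebpb, a known activator of Clec4e, was at 52.0 ± 6.11 CPM in CKO cells and 70.1 ± 7.08 CPM in FLOX cells (SD, n = 4 each; log2 fold change -0.44, edgeR adjusted p = 0.00203), while Clec4e itself rose. The lysosomal regulator Tfeb (log2 fold change -0.83), the lipid-sensing receptor Pparg (-0.57) and Cebpa (-0.61) fell.

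In the list of 45 genes that act downstream of the receptors, all tested, 8 rose (17.8%, against 23.8% of all tested genes) and 15 fell (33.3%, against 21.6%), with a median log2 fold change of -0.12. Syk, the kinase shared by Dectin-1, Mincle and Dectin-2, stood at 356, 326, 326 and 339 CPM in CKO replicates 2, 6, 7 and 8, against 448, 479.6, 426 and 489 CPM in FLOX replicates 3, 4, 6 and 7. The genotypes did not overlap (log2 fold change -0.45, SE 0.063, edgeR adjusted p = 9.79e-05). Prkcd, the kinase between SYK and CARD9, fell as well (log2 fold change -0.50, edgeR adjusted p = 0.000158). Card9 was at 48.5 ± 3.69 CPM in CKO cells and 51.2 ± 3.38 CPM in FLOX cells (SD, n = 4 each; log2 fold change -0.081, 95% interval -0.26 to 0.098, edgeR adjusted p = 0.390). Fcer1g, the gene of the shared gamma chain, was at 490, 426, 433 and 413 CPM in the CKO libraries, against 575, 476, 558 and 461 CPM in the FLOX libraries. CKO replicate 2 lay above FLOX replicates 4 and 7, and the call of Fcer1g (log2 fold change -0.23, SE 0.084, edgeR adjusted p = 0.0388) ended in 8 of 17 alternatives, with an adjusted p of up to 0.132 there, reached without CKO replicate 8. Leaving out CKO replicate 6 (0.118) or 7 (0.109), or FLOX replicate 3 (0.0862) or 6 (0.0996), ended it too. Ptpn6, which encodes the phosphatase SHP-1, was at 256 ± 14.1 CPM in CKO cells and 248 ± 21.6 CPM in FLOX cells (SD, n = 4 each; log2 fold change 0.047, 95% interval -0.13 to 0.22, edgeR adjusted p = 0.618). The inflammasome sensor Nlrp3 rose (log2 fold change 0.99, edgeR adjusted p = 5.91e-06).

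Of 17 genes known as outputs of these receptors, 10 were tested, 3 rose and 2 fell, with a median log2 fold change of 0.073. These are 30% and 20% of the tested outputs, near the 23.8% and 21.6% of all tested genes. Tnf was low but higher in CKO, at 8.13, 13.3, 7.46 and 7.35 CPM in replicates 2, 6, 7 and 8, against 3.15, 3.18, 6.53 and 4.33 CPM in FLOX replicates 3, 4, 6 and 7 (log2 fold change 1.04, SE 0.26, edgeR adjusted p = 0.00772). Egr2, an early response transcription factor that IL-4 also induces, fell (log2 fold change -0.55, edgeR adjusted p = 0.000114). The chemokine Ccl3 had a log2 fold change of -0.37 (edgeR adjusted p = 0.00870) and its neighbour Ccl4 one of 0.27 (edgeR adjusted p = 0.0351), a call that ended when CKO replicate 7 (0.0883) or 8 (0.0939), or FLOX replicate 3 (0.0593), 6 (0.0875) or 7 (0.0727), was left out.

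Other transmembrane lectin genes gave 8 higher and 2 lower of 14 tested from a list of 47, with a median log2 fold change of 0.37. These are 57.1% and 14.3% of those tested, against 23.8% and 21.6% of all tested genes. Klra2 passed the filter on low counts through its CKO libraries alone (1 to 3 read pairs in each FLOX library), so it could only be called higher. Cd207, with 6 read pairs in FLOX replicate 7, also needed its CKO libraries to pass. The shares count these genes and carry no test. Clec5a, a SYK-coupled receptor of myeloid cells, stood at 65.0, 69.5, 68.3 and 67.1 CPM in CKO replicates 2, 6, 7 and 8, against 46.6, 52.3, 43.7 and 46.1 CPM in FLOX replicates 3, 4, 6 and 7, without overlap (log2 fold change 0.52, SE 0.066, edgeR adjusted p = 4.75e-05). Clec2i was at 12.6 ± 0.656 CPM in CKO cells and 8.16 ± 0.737 CPM in FLOX cells (SD, n = 4 each; log2 fold change 0.62, edgeR adjusted p = 0.000184). Cd207, the gene of langerin, rested on few reads (5.30 ± 0.987 CPM in CKO cells and 1.03 ± 0.627 CPM in FLOX cells, SD, n = 4 each; edgeR adjusted p = 4.88e-05). Klra2 rested on fewer still (1.25 ± 0.345 CPM in CKO cells and 0.112 ± 0.0464 CPM in FLOX cells, SD, n = 4 each; edgeR adjusted p = 2.61e-05), and it belongs to a family of close relatives among which reads can be split. Mrc1, the mannose receptor and the most abundant gene of this list, was at 2310 ± 122 CPM in CKO cells and 2016 ± 204 CPM in FLOX cells (SD, n = 4 each; log2 fold change 0.20, edgeR adjusted p = 0.0611), and passed in 6 of 17 alternatives, among them those that left out CKO replicate 2 (adjusted p = 0.0282) or FLOX replicate 7 (0.0197).

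Some other families of macrophage receptors are given for comparison, beside the 23.8% of all tested genes that were higher and the 21.6% that were lower. Among scavenger receptors 3 of 10 tested genes rose and 4 fell, with a median log2 fold change of 0.045, Msr1 (log2 fold change 2.01) having the smallest p of them and Stab2 the smallest of those that fell (1.37 ± 0.186 CPM in CKO cells and 4.41 ± 0.866 CPM in FLOX cells, SD, n = 4 each; log2 fold change -1.68, edgeR adjusted p = 1.65e-05). Of 5 genes for Fc gamma receptors and their common chain 1 rose (Fcgr1, log2 fold change 1.04) and 4 fell, among them the inhibitory Fcgr2b (-0.93), with a median of -0.33. Toll-like receptors and co-receptors gave 2 higher (Tlr3, log2 fold change 0.57, and Cd180, 0.27) and 8 lower of 12 tested (among them Ly96, log2 fold change -0.68, and Tlr1, -0.35), with a median of -0.34.

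The genes with the most similar profile over the 8 libraries were sought by the root mean square difference of log2 CPM after centring each gene on its own mean. For Clec4e, the higher gene with the smallest p, these were Net1 (0.077), Cxcl14 (0.091) and Stk26 (0.099), and among the 10 receptors Mgl2 (0.25) was nearest. For Clec4a3, the lower gene with the smallest p, they were Adi1 (0.016), Map1lc3a (0.031) and Fahd1 (0.032), and Clec4a1 (0.085) and Clec7a (0.11) were the nearest receptors. These values are differences on the log2 scale and describe likeness only.

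Several of the receptors are also made by other myeloid cells, so markers of these were read beside them. Clec10a and Mgl2 are expressed by dendritic cells, whose 10 markers summed to 14.8 to 17.9 CPM in CKO and 19.3 to 21.2 CPM in FLOX. Most of this came from Batf3, and Flt3, Xcr1, Clec9a, Ccr7 and Siglech were each below 0.32 CPM on average in both genotypes, with none of the 10 at 0 in all libraries. Clec4d, Clec4e and Clec12a are expressed by neutrophils, whose 11 markers in the files summed to 125 to 155 CPM in CKO and 222 to 319 CPM in FLOX, most of it Csf3r. Of the 7 tested, S100a9, Ngp, Ltf and Cxcr2 rose to means of 1.03 to 3.11 CPM in CKO, from 0.300 to 1.03 CPM in FLOX. Csf3r fell, and Elane and Retnlg were at 0 throughout. That is 57.1% higher and 14.3% lower, against 23.8% and 21.6% of all tested genes. Ngp and Ltf passed the filter on low counts through CKO alone, so they could only be called higher. Among 5 tested monocyte markers 4 rose (80%, against 23.8% of all tested genes) and S100a4 fell (20%, against 21.6%). Ccr2 rose to 72.8 ± 7.99 CPM in CKO, against 33.5 ± 3.13 CPM in FLOX (SD, n = 4 each). The monocyte marker F13a1 passed the filter on low counts through CKO alone, so it could only be called higher. The summed level of all 9 monocyte markers was 999.8 to 1137 CPM in CKO and 1193 to 1593 CPM in FLOX, none of them at 0 in all libraries. Markers of mast cells and basophils summed to 4.81 to 5.47 CPM in CKO and 7.29 to 9.44 CPM in FLOX, those of eosinophils to 3.52 to 5.18 CPM in CKO and 2.54 to 3.93 CPM in FLOX, and those of B cells and of T and NK cells to less than 2 CPM in every library. Stromal and endothelial markers summed to 13.6 to 17.2 CPM in CKO and 17.4 to 22.8 CPM in FLOX. The part of such cells in the receptor differences was not tested. In bulk RNA fewer cells of a type and less RNA per cell cannot be told apart.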

How the data were processed

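Per the submitters' processing notes, the authors aligned paired-end reads with HISAT2 2.0.5 to mm10 and counted them with HTSeq; the sources used here do not give HTSeq's version, its annotation or its strand setting. The deposited values are raw counts per gene symbol, 1 file per library. The series table holds the same values (8 of 8 columns identical, 27 row names altered) and was used for this check only. HTSeq's classes of unassigned pairs stayed out of library sizes: 12.2% to 18.0% with low mapping quality, 6.52% to 9.60% outside genes, 5.03% to 6.01% with several alignments, 1.56% to 1.69% ambiguous and 0.819% to 1.19% unaligned. Without a known strand setting, it is open whether overlapping genes on opposite strands were told apart. Only Clec4a2 overlaps another gene of GENCODE M21, the pseudogene Gm44132. Both lie on the plus strand, so a strand setting would not part them.

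Counts were tested in R 4.3.3 with edgeR 4.0.16 (filterByExpr with minimum count 10 and minimum total 15, TMM factors, robust quasi-likelihood F test of CKO against FLOX, Benjamini-Hochberg adjustment over all 11519 tested genes, called at 0.05). The script was tested on simulated data. The standard error is the log2 fold change divided by the square root of F. CPM values use TMM-scaled library sizes. No pair of libraries within a group was as alike as counting error allows (chi-square over its degrees of freedom 2.45 to 27.8), so all 8 were used. Alternatives were RLE and upper-quartile factors, 2 other filters, DESeq2 1.42.0, voom of limma 3.58.1, a replicate block, removal of the 20 most abundant genes, and leaving out each library in turn or CKO replicate 2 with FLOX replicate 6.

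The members and lists were chosen with earlier results of these data known, so no p-value is adjusted over a list alone. Named beside the 10 members are Opa1, Lyz2, up to 4 genes of smallest p per list, 7 genes given whatever their value (Fcer1g, Syk, Card9, Ptpn6, Stat6, Cebpb, Mrc1), neighbours of the members, the most similar profiles, and cell type markers. Some genes that this rule selects are not reported here. The 5 count ratios were chosen after the values of these genes were seen and carry no test. Promoter sequences come from RefSeq (GRCm38.p6), transcripts from GENCODE M21.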

Additional observations from a re-analysis of the deposited data

Results flagged for a closer look

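A library was set apart where its gap to the next one exceeded the share of the range given by Dixon's critical value for groups of 4, a criterion that chance alone meets in about 1 of 20 groups; 136 groups of 63 genes and 5 ratios were looked at. None of the 10 receptor genes met it. The ratio of Clec4e to Clec4d counts was 0.0939 in FLOX replicate 3 and 0.124 to 0.128 in the other FLOX libraries, and that of Clec4e to Clec7a was 0.0174 in FLOX replicate 6 and 0.0108 to 0.0112 in the others. Tnf stood at 13.3 CPM in CKO replicate 6, against 7.35 to 8.13 CPM in the other CKO libraries. Ccl3 stood at 93.4 CPM in FLOX replicate 4, against 75.4 to 77.0 CPM in the other FLOX libraries. Clec2i was low in CKO replicate 7 (11.6 CPM), Tfeb high in CKO replicate 2 (52.6 CPM), Olr1 low in CKO replicate 6 (1.05 CPM) and Net1 high in CKO replicate 8 (24.1 CPM). Of the lectin neighbours too low to test, Clec4b2 had 0.0701 CPM in FLOX replicate 3 and 0 in the other FLOX libraries, and Clec1a had 0.781 CPM in FLOX replicate 7.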

How the results depend on the processing

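Clec4e, Mgl2, Clec4a2, Clec7a, Clec4a3 and Clec4a1 kept their direction and passed in all 17 alternatives, with adjusted p up to 0.00319. Clec4d passed in 13, Clec10a in 2, Clec12a and Clec4n in 0. Clec4n turned to -0.20 with the replicate block and -0.10 without CKO replicate 8, and ranged from -0.10 to 0.27 when 1 library was left out. Leaving out 1 library left 3 to 4 receptor genes higher, 3 to 4 lower and 4273 to 5210 genes called in all, against 4, 3 and 5231. Without both CKO replicate 2 and FLOX replicate 6, 4 were higher and 3 lower. The replicate numbers 6 and 7 occur in both groups. Deviations of same-numbered libraries from their group means correlated at 0.139 (number 6) and -0.0722 (number 7). Pairs with different numbers ranged from -0.302 to 0.237. The labels do not say whether same-numbered libraries share more than a number, and these correlations cannot settle it. A fit with the number as replicate block keeps 1 residual degree of freedom and called 3503 genes, 3 receptor genes higher and 3 lower. Clec4d then had an edgeR adjusted p of 0.0869 and Cd180 one of 0.105. Only the libraries numbered 6 and 7 inform the difference in this fit, since every other number occurs in only 1 group. DESeq2 called 5115 genes and limma-voom 5231. Depth limits Clec4n most.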

Other observations

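In FLOX, 6 of the 10 receptor genes (Clec4a1, Clec4a2, Clec4d, Clec10a, Mgl2 and Clec12a) were higher in both replicates 3 and 6 than in both replicates 4 and 7, and Clec4n was lower in both; among all tested genes 33.97% showed the first pattern and 29.2% the second. The same libraries part on the second principal component, which held 12.7% of the variance. Clec7a, Clec4a3 and Clec4e did not follow either pattern. FLOX replicate 7 was the lowest FLOX library for 6 of the 10 genes, against 29.0% of tested genes. Among CKO libraries, replicate 2 came closest to FLOX in all 3 receptor genes called lower, against 63.6% of all genes called lower. It did so in 2 of the 4 called higher, against 58.9% of all genes called higher.

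Fcgr2b, the inhibitory Fc gamma receptor, stood at 315 ± 21.7 CPM in CKO cells and 600.1 ± 54.6 CPM in FLOX cells, and Fcgr1, an activating one, at 62.0 ± 1.175 CPM in CKO cells and 30.0 ± 2.95 CPM in FLOX cells (SD, n = 4 each). The scavenger receptors Cd36 (1224 ± 82.8 CPM in CKO cells and 906 ± 14.7 CPM in FLOX cells) and Stab1 (251 ± 11.1 CPM in CKO cells and 184 ± 17.0 CPM in FLOX cells, SD, n = 4 each) were higher in CKO. So was Msr1 (267 ± 33.6 CPM in CKO cells and 66.4 ± 5.66 CPM in FLOX cells, SD, n = 4 each). Of the 10 tested scavenger receptors 3 rose (30%, against 23.8% of all tested genes) and 4 fell (40%, against 21.6%).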
